A study of Danio rerio with 2 samples.

Results

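The genes described here are those of the death receptor pathway around *casp8* in the adult zebrafish ovary. They were chosen by name, as ligands, receptors, adaptors, the initiator caspase and its inhibitor, and every gene under a name was kept. The choice was made with earlier results of these data known. Of 10 names (*casp8*, *cflara*, *fadd*, *tradd*, *fas*, *faslg*, *tnfsf10*, *tnfrsf1a*, *ripk1l* and *traf4a*), 9 were matched to 10 of the 22328 genes in the table, since *traf4a* stands under the symbol TRAF4, which 2 genes carry. The gene under *faslg* was not analysed here. Ovaries of adult AB strain fish were compared between wild type and *sox3*-/- fish. The data are 2 libraries, 1 per genotype, each a pool of ovary RNA from several fish, and neither has a replicate. The mutants carried frame-shift deletions made with CRISPR/Cas9, which cuts a gene at a chosen site, and the study derived its fish from crosses of heterozygotes. It raised more than one mutant line, and neither the labels nor the methods name the line of the library labelled knockout. Values are FPKM, which divides the fragments of a gene by its length and by the depth of the library, so that levels can be compared between genes as well as between libraries. Paired FPKM values are printed with the wild type label before the knockout label.

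Death receptors are cell surface proteins of the tumor necrosis factor (TNF) receptor family. A ligand such as Fas ligand or TRAIL (the product of *tnfsf10*) brings receptors together, the receptors gather the adaptor FADD, and FADD recruits caspase-8 into a complex in which the caspase is activated and starts apoptosis. The protein of *cflara* resembles caspase-8 but lacks its protease activity, and it competes for a place in that complex. The TNF receptor uses TRADD, RIPK1 and TRAF proteins instead, and through them can signal to NF-kB and JNK. In the ovary, apoptosis of granulosa cells through this pathway is known from the atresia of follicles in mammals.

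*sox3* itself (SOX3, ENSDARG00000053569) was at 1.18 and 2.16 FPKM. A loss of the transcript would have the opposite direction, so the libraries are named by their labels, and each direction below is that of the labels. By quantitative PCR the study reported less *sox3* transcript in ovaries of its mutant lines, and by Western blot no Sox3 protein. The FPKM of *sox3* lie at a low level, 1 to under 5 FPKM, where 26.0% of genes were higher by over 1.4-fold. Variation between fish was not measured, so no p-value is given. Each log2 ratio divides the knockout value by the wild type value, both raised by 0.1 FPKM, and this addition shrinks the ratios of low genes. A gene is called higher or lower if it differs by over 1.4-fold, the fold threshold of the study, and reaches 1 FPKM in either library. Where a gene reaches 1 FPKM in only 1 library, that filter alone sets its direction. The study also set a limit on the false discovery rate, which is not used here, so these calls are not its differentially expressed genes. Read counts per gene were not used here, and how often genes pass this fold depends on their level. It was passed in either direction by 57.2% of genes with 1 to under 5 FPKM in the higher library, by 32.7% with 5 to under 20 FPKM and by 15.0% with 20 FPKM or more.

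Of the 10 member genes, 7 reached 1 FPKM, and 4 of these were higher, 2 were lower and 1 was within 1.4-fold. The initiator caspase *casp8*, its inhibitor *cflara*, the ligand TNFSF10 and one TRAF4 gene were higher in the library labelled knockout. The adaptor FADD and the other TRAF4 gene were lower, and *tradd* was nearly equal. Among all 13455 genes at 1 FPKM or more, 15.1% were higher and 17.5% lower by the same rule. The median log2 ratio was 0.75 over the 7 members and -0.02 over all these genes. The members' mean was 0.20, since FADD lay far to the other side, and their ratios ran from -1.49 to 1.25. With so few members, chosen with earlier results of these data known, these counts are a description of single genes. Setting them beside all genes is no test. By a fold of 2 or more, TNFSF10 was higher and FADD lower, where 6.34% of all genes were higher and 7.89% lower. The plot of levels shows both values of each gene.

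**Figure D1:**
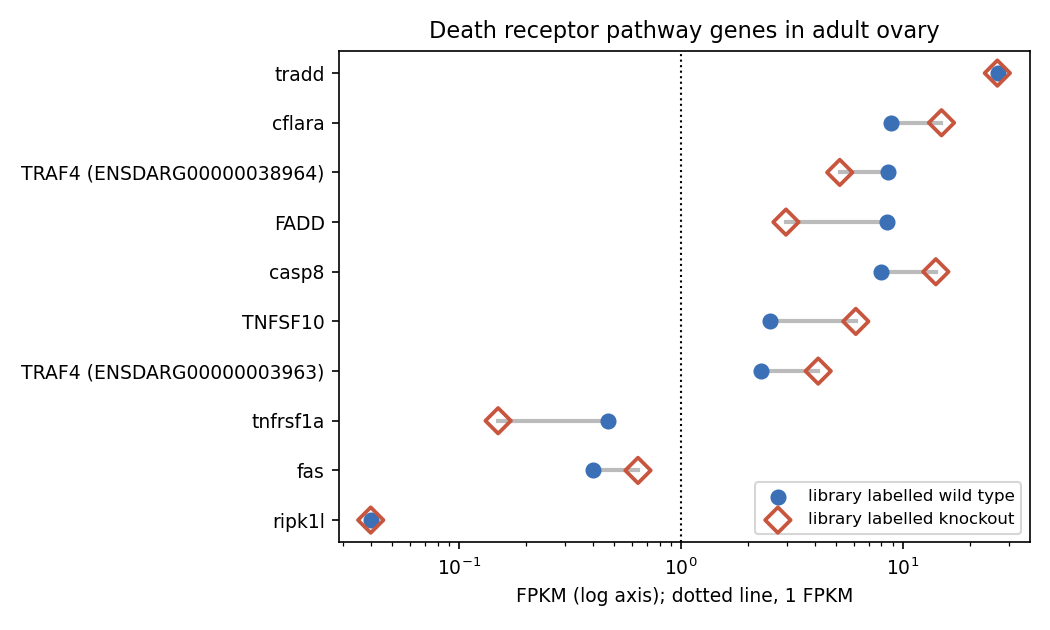
FPKM of the 10 member genes (log axis) in the library labelled wild type (filled circles) and the library labelled knockout (open diamonds), ordered by the wild type value, with 1 library per genotype and no error bars. TNFSF10, *casp8*, *cflara* and the TRAF4 gene ENSDARG00000003963 lie further right in the library labelled knockout, FADD and the TRAF4 gene ENSDARG00000038964 further left, and 3 genes lie under the dotted line at 1 FPKM.

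Among the ligands, TNFSF10 (ENSDARG00000057241), which encodes a TRAIL ligand, was at 2.52 and 6.13 FPKM. Its log2 ratio of 1.25, a 2.38-fold difference on the scale with 0.1 FPKM added, was the largest among the higher members. Of the genes of its level, from 5 to under 20 FPKM in the higher library, 15.2% were higher and 17.5% lower by over 1.4-fold. A related ligand gene, *tnfsf10l4* (ENSDARG00000058068), was far more abundant and nearly equal, at 24.07 and 23.72 FPKM. The list of 13 ligand names took 9 genes, and only these 2 reached 1 FPKM. The TNF gene *tnfb* was at 0.13 FPKM in both libraries.

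The member receptors were near the lower end of the table. *fas* (ENSDARG00000043586), the receptor of Fas ligand, was at 0.40 and 0.64 FPKM. *tnfrsf1a* (ENSDARG00000018569), a receptor of TNF, was at 0.47 and 0.15 FPKM. Their log2 ratios of 0.57 and -1.19 were within 1.4-fold when 1 FPKM was added in place of 0.1 (0.23 and -0.35), and neither is called. Of the 11 genes that the receptor list took, 2 reached 1 FPKM. *tnfrsf1b* (ENSDARG00000070165), the second TNF receptor, was lower, at 5.76 and 3.67 FPKM, and *tnfrsfa* (ENSDARG00000004451), known in fish as the ovarian TNF receptor, was at 4.45 and 3.51 FPKM, within 1.4-fold. Neither of the 2 was higher. Among all genes at 1 FPKM or more, 15.1% were higher and 17.5% lower.

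The adaptors of the pathway differed from each other. FADD (ENSDARG00000103021), which links death receptors to caspase-8, was at 8.51 and 2.97 FPKM. Its log2 ratio was -1.49, 2.80-fold lower, and among genes from 5 to under 20 FPKM 17.5% were lower by over 1.4-fold. *tradd* (ENSDARG00000036057), which links the TNF receptor to its kinase and TRAF proteins, was the most abundant member in both libraries, at 26.90 and 26.62 FPKM. The ratio of *tradd*, -0.02, was just above 0 with either of the other scalings tried (0.03 and 0.01). *ripk1l* (ENSDARG00000006677), for the kinase RIPK1, was at 0.04 FPKM in both. Of the 11 genes in the list of adaptors and kinases, 8 reached 1 FPKM. Besides FADD one was lower, CRADD (ENSDARG00000028192), an adaptor that binds caspase-2, at 9.03 and 6.42 FPKM, which lies on the 1.4-fold limit. None was higher, and the other 6 were within 1.4-fold, among them DAXX, a protein first described as a Fas binding partner, at 52.94 and 60.20 FPKM. Among all genes at 1 FPKM or more, 15.1% were higher and 17.5% lower.

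The 2 genes under TRAF4 had opposite directions. ENSDARG00000038964 was at 8.58 and 5.19 FPKM, a log2 ratio of -0.71. ENSDARG00000003963 was at 2.30 and 4.15 FPKM, a log2 ratio of 0.82, at a level where 26.0% of genes were higher and 31.2% lower. Which of them is *traf4a* could not be read from the symbols. Added together they were at 10.88 and 9.34 FPKM, a log2 ratio of -0.22, so their sum was within 1.4-fold. As paralogues the pair may share reads. TRAF proteins are adaptors and ubiquitin ligases of TNF receptors, and of the 8 TRAF genes at 1 FPKM or more, 1 was higher and 4 lower, beside 15.1% and 17.5% of all genes. Their median log2 ratio was -0.31, and the list summed to 58.9 and 56.4 FPKM. The lower ones beside TRAF4 were *traf1* (ENSDARG00000069482), at 6.51 and 3.52 FPKM, *traf2b* (ENSDARG00000101036), at 4.26 and 2.31 FPKM, and TRAF6 (ENSDARG00000028058), at 3.13 and 1.98 FPKM. The other gene for TRAF2 at this level, ENSDARG00000030173, had 8.47 and 10.93 FPKM, and *traf3* had 8.08 and 8.11 FPKM, both within 1.4-fold.

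*casp8* and *cflara*, the caspase and its inhibitor, were close to each other in level and in ratio. *casp8* (ENSDARG00000058325) was at 7.99 and 14.06 FPKM, a log2 ratio of 0.81 or 1.75-fold. *cflara* (ENSDARG00000055966) was at 8.82 and 14.91 FPKM, a log2 ratio of 0.75 or 1.68-fold. At their level 15.2% of genes were higher by over 1.4-fold. The level of *casp8* was 0.91 times that of *cflara* in the library labelled wild type and 0.94 times in the library labelled knockout. Such a comparison of 2 genes within a library does not depend on how the libraries are scaled. Relative to FADD, the adaptor that both bind, the 2 libraries were further apart. *casp8* was at 0.94 times the level of FADD in the library labelled wild type and 4.73 times in the library labelled knockout, and *cflara* at 1.04 and 5.02 times. These ratios restate the single gene values, in which FADD was lower and the other genes higher, and other gene pairs were not compared with them. The level of *casp8* relative to *tradd* was 0.30 and 0.53. The second gene of the inhibitor, *cflarb* (ENSDARG00000074802), was under 1 FPKM, at 0.49 and 0.16 FPKM.

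By level the members stood in the order *tradd*, *cflara*, TRAF4 (ENSDARG00000038964), FADD, *casp8*, TNFSF10, TRAF4 (ENSDARG00000003963), *tnfrsf1a*, *fas* and *ripk1l* in the library labelled wild type. The 4 genes from *cflara* to *casp8* were close together there, between 7.99 and 8.82 FPKM, and their order cannot be separated without replicates. In the library labelled knockout the same 4 genes spread from 2.97 FPKM for FADD to 14.91 FPKM for *cflara*. FADD had place 4 of the 10 in the library labelled wild type and place 7 in the other, and *casp8* had places 5 and 3. Summed over the 10 genes, the level was 66.5 FPKM and 74.9 FPKM. In the plot of ratio against level the members lie within the spread of all genes.

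**Figure D2:**
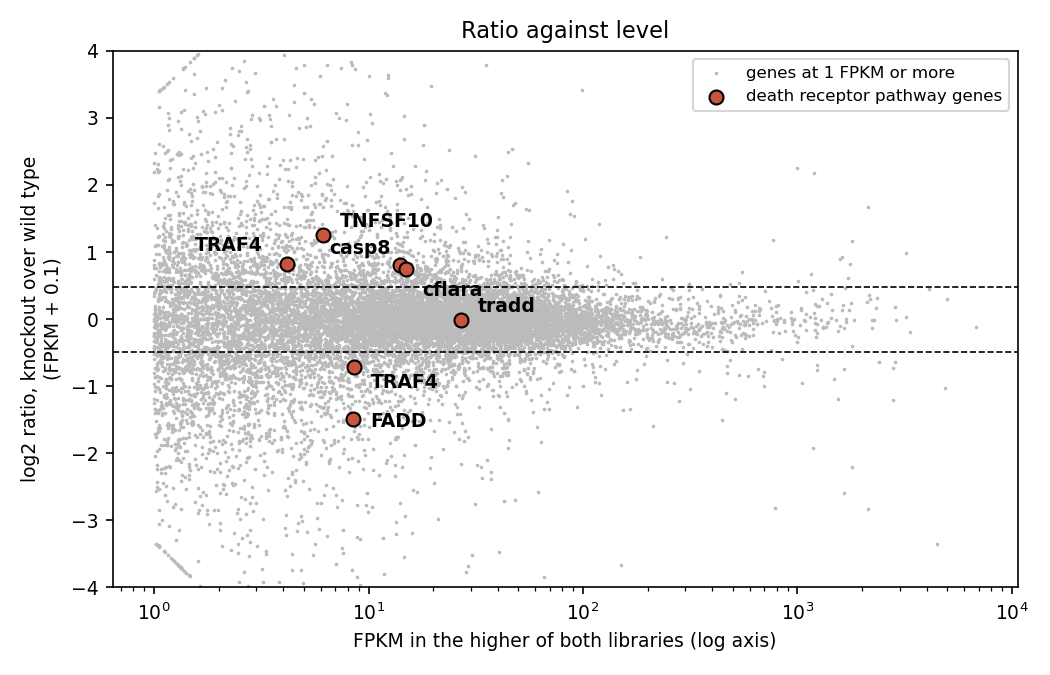
Log2 ratio of knockout over wild type, with 0.1 FPKM added, against the FPKM of the higher library (log axis) for all genes at 1 FPKM or more (grey) and the 7 member genes (red, named); dashed lines mark 1.4-fold, and 121 genes beyond 4 log2 units are not drawn. The TRAF4 gene above the upper line is ENSDARG00000003963 and the one below the lower line ENSDARG00000038964, and genes of lower level spread more widely.

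Other genes of the pathway were taken from 9 lists by function, which also hold the members. Together they took 110 genes, of which 76 reached 1 FPKM. Of these 9 were higher (11.8%), 12 lower (15.8%) and 55 within 1.4-fold, with a median log2 ratio of -0.02. Without the members, 5 of 69 were higher (7.2%) and 10 lower (14.5%). Among all genes at 1 FPKM or more, 15.1% were higher and 17.5% lower. Taking out the members removes 4 of the 9 higher genes.

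Of the caspases, the proteases that carry out apoptosis, 6 genes of the list reached 1 FPKM (with APAF1, which activates caspase-9). Here *casp8* was among the higher genes. CASP6 (ENSDARG00000093405), an executioner caspase, was lower at 1.29 and 0.74 FPKM, and reached 1 FPKM only in the library labelled wild type. CASP9, the initiator caspase of the mitochondrial route, was at 8.22 and 7.53 FPKM, and CASP2, which is bound by CRADD, at 13.02 and 14.58 FPKM, both within 1.4-fold. *casp10*, a relative of *casp8*, was at 0.47 and 0.25 FPKM. In the list of caspase inhibitors and their antagonists, 4 of 12 genes were higher and none lower, beside 15.1% and 17.5% of all genes. Only *cflara* among these 4 encodes an inhibitor. The other 3 are among the 9 genes under HTRA2, a protease that promotes apoptosis, whose values are uncertain as copies. They were at 0.01 and 1.07, 0.42 and 1.82, and 1.20 and 1.94 FPKM. Only the last of these reached 1 FPKM in both libraries. Without the genes under HTRA2, 1 of 6 genes of the list was higher and none lower. The inhibitor genes *xiap*, at 26.62 and 21.57 FPKM, and BIRC2, at 33.32 and 32.73 FPKM, were within 1.4-fold.

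Caspase-8 can also cut Bid, which passes the signal to mitochondria. *bida* (ENSDARG00000069290) was at 16.27 and 18.65 FPKM, within 1.4-fold, as were 6 more of the 8 genes of this branch at 1 FPKM or more. The exception was *bcl2a* (ENSDARG00000094704), which protects mitochondria, lower at 3.63 and 2.08 FPKM, at a level where 31.2% of genes were lower. Cytochrome c, which leaves the mitochondria in apoptosis, is encoded by *cycsb*, at 199.14 and 147.66 FPKM.

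NF-kB signalling leads from TNF receptors to survival genes. Of its 22 genes at 1 FPKM or more none was higher and 3 were lower (13.6%), beside 15.1% and 17.5% of all genes. At the level of the lower ones, 1 to under 5 FPKM, 31.2% of genes were lower. The 3 lower genes were IKBKB (ENSDARG00000079123), a kinase of the NF-kB inhibitor, at 1.09 and 0.35 FPKM, and the NF-kB subunits REL, at 3.14 and 2.04 FPKM, and RELA, at 3.91 and 2.59 FPKM. Among its abundant genes, *nfkbiab*, for an inhibitor of NF-kB, at 60.07 and 56.77 FPKM, and MAP3K7, for the kinase TAK1, at 59.74 and 53.40 FPKM, were within 1.4-fold. In the JNK branch 1 of 8 genes was higher, MAPK10, at 0.88 and 1.32 FPKM, and none was lower. At the level of MAPK10 26.0% of genes were higher. MAPK10 reached 1 FPKM only in the library labelled knockout, and IKBKB only in the library labelled wild type. MAP3K5, for the kinase ASK1, was at 1.93 and 2.60 FPKM.

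**Figure D3:**
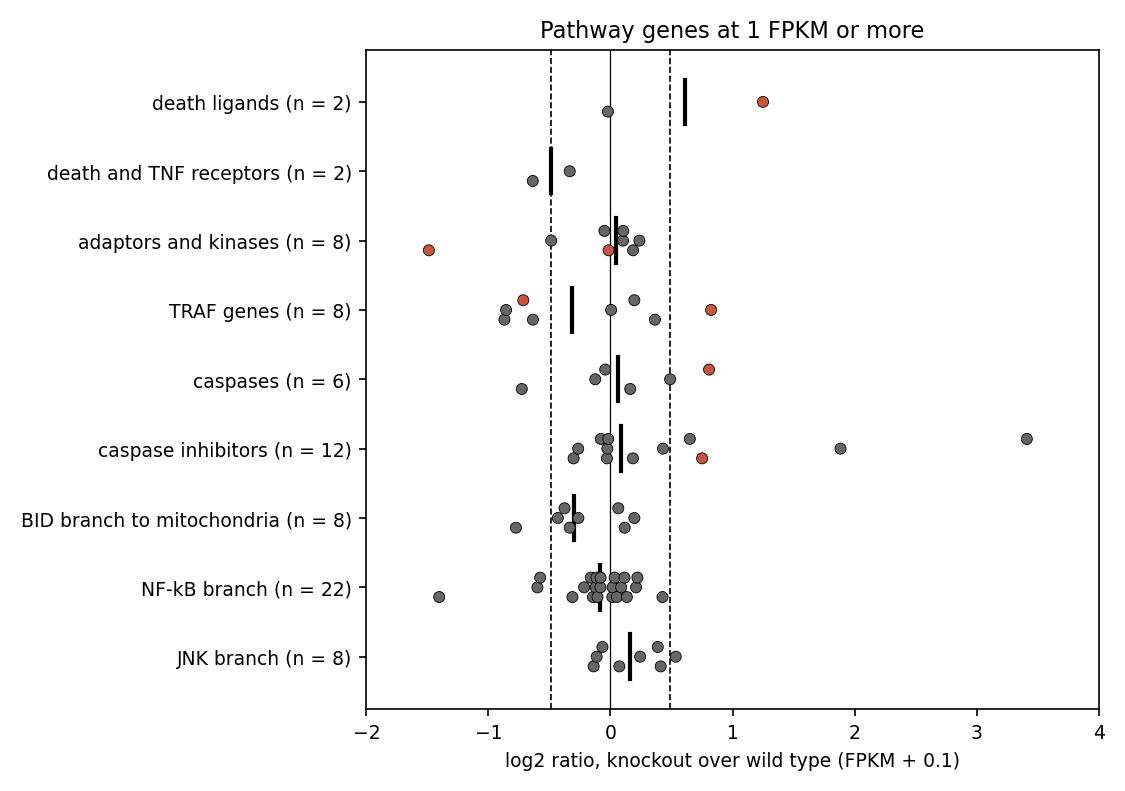
Log2 ratio of knockout over wild type, with 0.1 FPKM added, for each gene at 1 FPKM or more in the 9 pathway lists; red points are the member genes, grey points other genes, thick bars the median of each list and dashed lines 1.4-fold. TNFSF10, *casp8*, *cflara* and one TRAF4 gene lie right of the upper line and FADD farthest left, while the NF-kB and mitochondrial lists lie mostly between the lines; the point farthest right is an HTRA2 gene whose wild type value is the smallest of the table, 0.01 FPKM.

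An ovary holds oocytes, follicle cells, blood and vessels, and in bulk RNA fewer cells of a type and less RNA per cell cannot be told apart. All 11 oocyte markers were within 1.4-fold, at a level where 15.0% of genes passed it, and their summed level was 8034 and 7421 FPKM. Of the 9 granulosa and theca markers at 1 FPKM or more, 4 were higher and 4 lower, beside 15.1% and 17.5% of all genes. Their median log2 ratio was -0.07. Their sum over all 14 genes was 210 and 295 FPKM, most of it from the steroid synthesis genes CYP11A1 (105.49 and 153.47 FPKM), *hsd3b2* (51.65 and 77.18 FPKM) and CYP17A1 (30.73 and 48.96 FPKM). Without these 3 genes the sum was 21.9 and 15.4 FPKM. Besides these 3, *hsd3b1* was higher, at 2.54 and 3.67 FPKM. The lower markers were STAR, at 1.88 and 0.46 FPKM, one FOXL2 gene, at 3.61 and 1.47 FPKM, CYP19A1, at 2.04 and 1.12 FPKM, and *gsdf*, at 6.62 and 4.36 FPKM. All of these but *gsdf* lie at 1 to under 5 FPKM, where 26.0% of genes were higher and 31.2% lower. STAR reached 1 FPKM only in the library labelled wild type.

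Of 9 leukocyte markers at 1 FPKM or more, 3 were higher and 1 lower, and the sum over all 13 was 18.1 and 22.5 FPKM. At the level of these called genes, 1 to under 5 FPKM, 26.0% of all genes were higher and 31.2% lower. The higher leukocyte markers were the scavenger receptor gene *marco*, of macrophages, at 1.4 and 3.39 FPKM, *lyz*, at 0.49 and 1.48 FPKM, and *il7r*, at 1.0 and 1.83 FPKM. ZAP70, of T cells, was lower, at 1.26 and 0.74 FPKM. Of these, *lyz* reached 1 FPKM only in the library labelled knockout, and ZAP70 only in the library labelled wild type. Under 1 FPKM, *ptprc*, the common leukocyte gene, was at 0.64 and 0.43 FPKM. The others under 1 FPKM were *cd4-1*, at 0.32 and 0.65 FPKM, *csf1ra*, at 0.16 and 0.35 FPKM, and *lck*, at 0.14 and 0.19 FPKM. The red blood cell list summed to 15.0 and 25.7 FPKM, of which the globin gene *hbaa1* had 12.8 and 23.05 FPKM, and to 2.24 and 2.65 FPKM without it. The endothelial list summed to 2.57 and 4.28 FPKM. Here *kdrl*, at 0.99 and 2.21 FPKM, and FLI1, at 0.52 and 1.17 FPKM, were higher, at the same level of 1 to under 5 FPKM. The other 4 genes, all under 1 FPKM, summed to 1.06 and 0.90 FPKM. They were *tek* at 0.38 and 0.18 FPKM, *vwf* at 0.24 and 0.16 FPKM, TIE1 at 0.13 and 0.09 FPKM, and *cdh5* at 0.31 and 0.47 FPKM. The testis list, of 7 genes, summed to 18.1 and 31.6 FPKM with a SOX9 gene at 4.09 and 23.83 FPKM, and to 14.0 and 7.73 FPKM without it. This list named *sox9a*, but 2 genes carry the symbol SOX9 and both were taken. The other was at 0.48 and 0.21 FPKM, and which of them is *sox9a* could not be read from the symbols. No gene of the leukocyte, endothelial or red blood cell lists was at the smallest value of 0.01 FPKM in either library. The sums of all marker lists but that of the oocyte were thus larger in the library labelled knockout. Of the members, *casp8*, *cflara*, TNFSF10 and TRAF4 (ENSDARG00000003963) were higher there. FADD and TRAF4 (ENSDARG00000038964) were lower, and *tradd* was nearly equal. By median log2 ratio the lists differed: -0.07 for follicle cell, -0.44 for testis and 0.10 for leukocyte markers. It was 1.06 over 2 endothelial genes and 0.84 for 1 red blood cell gene. Both endothelial genes reached 1 FPKM only in the library labelled knockout, so the filter fixed the sign of their median. Without CYP11A1, *hsd3b2*, CYP17A1, *kdrl*, FLI1 and the SOX9 gene above, the follicle cell, endothelial and testis sums were smaller in the library labelled knockout. Without *hbaa1* the red blood cell sum was larger there. The genes taken out were the most abundant of their lists, chosen after the values had been seen. None was taken out of the leukocyte list. Nothing is concluded from the sums without them. The part of these markers in the members' values was not tested.

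**Figure D4:**
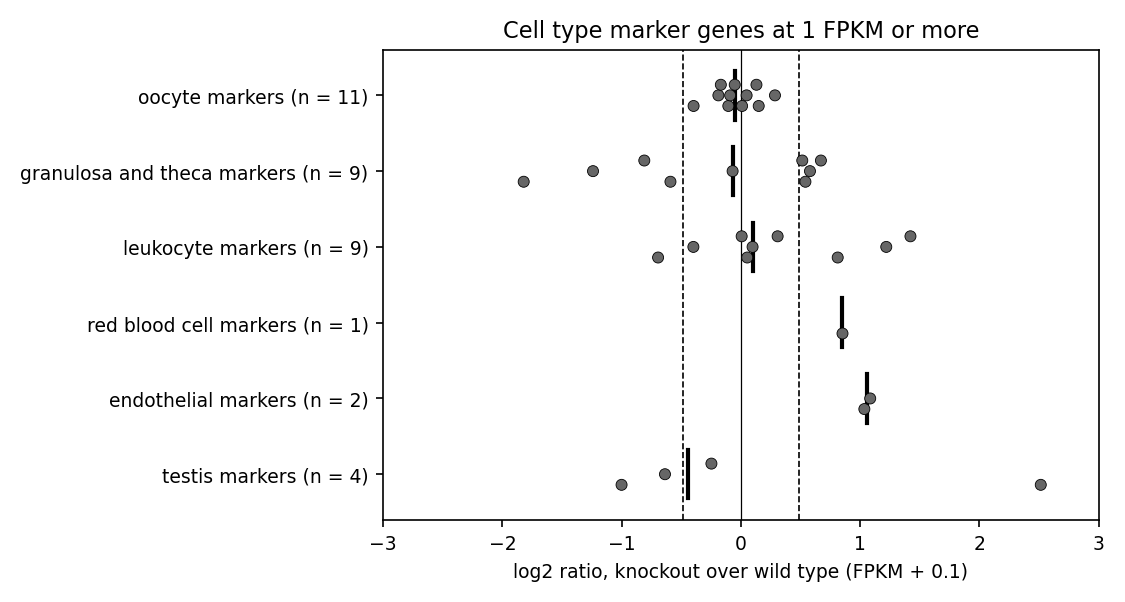
Log2 ratio of knockout over wild type, with 0.1 FPKM added, for each marker gene at 1 FPKM or more of 6 cell type lists; thick bars are medians and dashed lines 1.4-fold. The 11 oocyte markers lie between the dashed lines, the follicle cell and leukocyte markers lie on both sides, and the few endothelial and red blood cell genes lie to the right. Both endothelial genes drawn reached 1 FPKM only in the library labelled knockout.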

How the data were processed

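Poly(A) RNA pooled from adult ovaries of each genotype was sequenced by the authors on a BGISEQ-500. HISAT and Bowtie2 served them for mapping and RSEM for FPKM. GRCz10 is the build in the submitters' processing notes. For tool versions, the sources used here give none. The deposited FPKM values have 2 decimals and a smallest value of 0.01, which can stand for 0. Without read counts the counting error is unknown. Among 3000 genes between 0.05 and 0.4 FPKM in both libraries, 471 were within 0.05 on the log2 scale of equal.

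Symbols were found for 20336 of 22328 gene IDs. Each name was looked up as written, then in capitals, and last with a final a or b removed from the capitals, until a gene was found. The members and gene lists were chosen with earlier results of these data known. Named genes are *sox3*, all genes under the member names, and up to 4 genes of each list with the largest ratios at 1 FPKM or more; the few other genes of the lists that are named, and those under other observations, were chosen after their values were seen. For 1 gene within this rule, values are not reported here. With 1 library per genotype no test was made. The log2 ratio used a pseudocount of 0.1 FPKM. Alternatives were other pseudocounts, filters, scalings and folds. The calls and scalings were tested on simulated data with known folds and little noise. Such a simulation checks the code and does not measure false calls in these libraries. Python 3.11.15, numpy 2.4.6, pandas 2.3.3 and matplotlib 3.10.9 were used. No sequence of the members was used here.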

Additional observations from a re-analysis of the deposited data

How the results depend on the processing

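Adding 0.01 or 1 FPKM in place of 0.1, and both other scalings (trimmed mean of log ratios, median of ratios), left the 4 higher and 2 lower member genes as they were, in all 28 recomputed ratios of the 7 members at 1 FPKM or more. The log2 ratio of *casp8* ran from 0.74 to 0.85, of *cflara* from 0.70 to 0.80, of TNFSF10 from 1.02 to 1.30 and of FADD from -1.52 to -1.26. By a fold of 2 or more, 1 member was higher and 1 lower, and over names that belong to 1 gene 1 member was lower. The median log2 ratio of the members, 0.75, was 0.28 with no filter on low values, 0.37 over the 6 members at 5 FPKM or more and 0.20 as a mean, all within 1.4-fold; the cause was not tested. For the wider pathway lists the alternatives were chosen after seeing the data. There 9 genes higher and 12 lower, of 76, became 18 and 21 of 110 with no filter, and 4 and 5 of 54 at 5 FPKM or more. Over the same 76 genes they were 3 and 2 by a fold of 2 or more, and 6 and 7 with a pseudocount of 1 FPKM. Without the genes under HTRA2 they were 6 and 12 of 70. By a fold of 2 or more, 6.34% of all genes were higher and 7.89% lower. For the other alternatives the share of all genes is not given here. No paired analysis was possible because each genotype has 1 library. Depth limits the lowest genes most, *fas*, *tnfrsf1a* and *ripk1l* among the members.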

Other observations

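Symbols of the TNF ligand and receptor, caspase and TRAF families that the lists had not named were looked at after the values had been seen. The most abundant death receptor gene in both libraries was *hdr* (ENSDARG00000004392), the hematopoietic death receptor of zebrafish, at 42.78 and 51.71 FPKM, within 1.4-fold and far above *fas* and *tnfrsf1a*. The receptor gene *tnfrsf14* (ENSDARG00000068966) was at 0.25 and 4.59 FPKM, a log2 ratio of 3.74, and TNFRSF19 (ENSDARG00000041869) at 1.92 and 0.95 FPKM, a log2 ratio of -0.94. Over the 18 TNF ligand and receptor genes found by symbol, 7 reached 1 FPKM, of which 2 were higher and 2 lower, TNFSF10 and *tnfrsf14* against *tnfrsf1b* and TNFRSF19. Among all genes at 1 FPKM or more, 15.1% were higher and 17.5% lower. At the level of *tnfrsf14* and TNFRSF19 these shares were 26.0% and 31.2%. *tnfrsf14* reached 1 FPKM only in the library labelled knockout, and TNFRSF19 only in the library labelled wild type. Among caspases *casp23* (ENSDARG00000014657) was listed at 0.01 and 2.05 FPKM. A gene of a TRAF-binding protein, *traf3ip2l* (ENSDARG00000091734), was at 11.24 and 2.16 FPKM, a log2 ratio of -2.33. *casp8ap2* (ENSDARG00000022718), named for binding caspase-8, was at 8.83 and 9.03 FPKM, and *edaradd*, the adaptor of the ectodysplasin receptor, at 2.31 and 2.32 FPKM.

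The gene order of the RefSeq annotation of another assembly, GRCz12tu, was used for neighbours only. Of the 5 protein-coding genes on each side of *casp8*, *cflara*, *fadd*, *tnfsf10* and *tradd*, 27 of 50 were matched to 1 gene each. Of these, 16 reached 1 FPKM, 4 higher and 1 lower, beside 15.1% and 17.5% of all genes. At 1 to under 5 FPKM the shares of all genes were 26.0% and 31.2%. Directly beside *casp8*, *l3hypdh* (ENSDARG00000103763) was at 0.46 and 2.82 FPKM, in the direction of *casp8*, and *catip* on its other side at 0.07 FPKM in both libraries. Directly beside *fadd*, *pacsin3* (ENSDARG00000099339) was at 46.01 and 72.47 FPKM, opposite to FADD. Nothing is read from these neighbours about the genes between them.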
